A study of Mus musculus with 12 samples.

Results

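The Arhgef and Dock genes encode guanine nucleotide exchange factors, the proteins that switch on small GTPases such as RhoA, Rac and Cdc42. They were taken as all protein-coding genes of the deposited table whose symbol is Arhgef or Dock followed by a number (with Arhgef10l included), without Arhgef16, which lies near Plekhg5. This gave 35 of the 45906 genes, of which 24 were Arhgef genes and 11 were Dock genes. Poly-A RNA of the spinal cord had been sequenced from mice aged 7 months, with 3 libraries for each of 4 genotypes. These were wildtype mice (Plekhg5+/+), mice lacking Plekhg5 (Plekhg5-/-), mice carrying the low copy transgene for human SOD1 with the G93A mutation, a model of amyotrophic lateral sclerosis (Plekhg5+/+ SOD1-G93A), and mice with both (Plekhg5-/- SOD1-G93A). Per the methods, the mice had a C57BL/6 background, and their sex was not considered but was balanced across the experiments. The tissue was taken whole, so that a gene used by few cells is measured together with all other cells of the cord.

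These GTPases are inactive while they hold GDP and active while they hold GTP. An exchange factor opens the GTPase so that GDP leaves and GTP binds, after which the GTPase can act on the actin cytoskeleton. The Arhgef proteins do this with a Dbl homology domain, usually next to a pleckstrin homology domain, and Plekhg5 itself belongs to this family. The Dock proteins have no Dbl homology domain and use an unrelated domain on Rac and Cdc42, often together with an Elmo protein. In the nervous system, members of both families take part in axon growth, dendritic spines, inhibitory synapses and myelination, and some Dock proteins are known for their part in the movement of immune cells.

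The libraries held 30415643 to 38743628 counts. Plekhg5 had 19.4 to 25.0 CPM (counts scaled to library size, with TMM normalization) in the 6 Plekhg5+/+ libraries and 3.28 to 4.72 CPM in the 6 Plekhg5-/- libraries, with and without the transgene, and human SOD1 had 4421 to 5638 CPM in the transgenic and 0.153 to 5.47 CPM in the other libraries. Both thus followed the labels. Y-linked transcripts were found in 3 Plekhg5+/+, 2 Plekhg5-/-, 2 Plekhg5+/+ SOD1-G93A and 1 Plekhg5-/- SOD1-G93A libraries. These numbers were not equal between the genotypes, and the labels give no sex. The markers of microglia, astrocytes, oligodendrocytes, neurons and motoneurons were present in every library. The library Plekhg5+/+ SOD1-G93A #1 stood apart, with a sum of 1616 CPM over 10 microglial markers against 480 to 957 CPM in the other libraries, and 9683 CPM over 6 astrocyte markers against 5057 to 6662 CPM. Other marker sums differed as well. Over 3 Schwann cell markers the sum was 198, 230.4 and 56.4 CPM in Plekhg5+/+, 45.9, 54.0 and 91.5 CPM in Plekhg5-/-, 44.9, 129 and 99.8 CPM in Plekhg5+/+ SOD1-G93A, and 255, 221 and 339.9 CPM in Plekhg5-/- SOD1-G93A libraries. Over 8 endothelial markers it was 134 to 225 CPM in the libraries of the first 3 of these genotypes and 201 to 267 CPM in Plekhg5-/- SOD1-G93A. Of these 11 markers edgeR called 1 in any comparison, Ly6c1, which was lower in Plekhg5+/+ SOD1-G93A than in Plekhg5+/+.

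All 35 genes passed the filter on low counts and were tested among 20155 genes. Their levels were compared per exon length, in RPKM (CPM divided by the exon length in kilobases), as means over the 12 libraries. The highest mean was that of Arhgef4 at 42.8 RPKM, a Rac and Cdc42 exchange factor that binds the tumor suppressor Apc. Also high were Arhgef12 at 23.6 RPKM and Arhgef11 at 23.0 RPKM, which link G protein-coupled receptors to RhoA, and Arhgef10 at 19.6 RPKM, a gene linked to nerve conduction, and Dock3 at 19.3 RPKM, a Rac exchange factor of neurons. In all, 4 genes lay above 20 RPKM, 8 between 10 and 20 RPKM, 19 between 1 and 10 RPKM and 4 below 1 RPKM. Dock2 at 1.62 RPKM and Dock8 at 1.21 RPKM ranked 29 and 31 of the 35. The lowest were Arhgef33 at 0.173 RPKM, Arhgef39 at 0.150 RPKM and Arhgef38 at 0.0238 RPKM, the latter with only 2 to 12 counts per library.

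**Figure D1:**
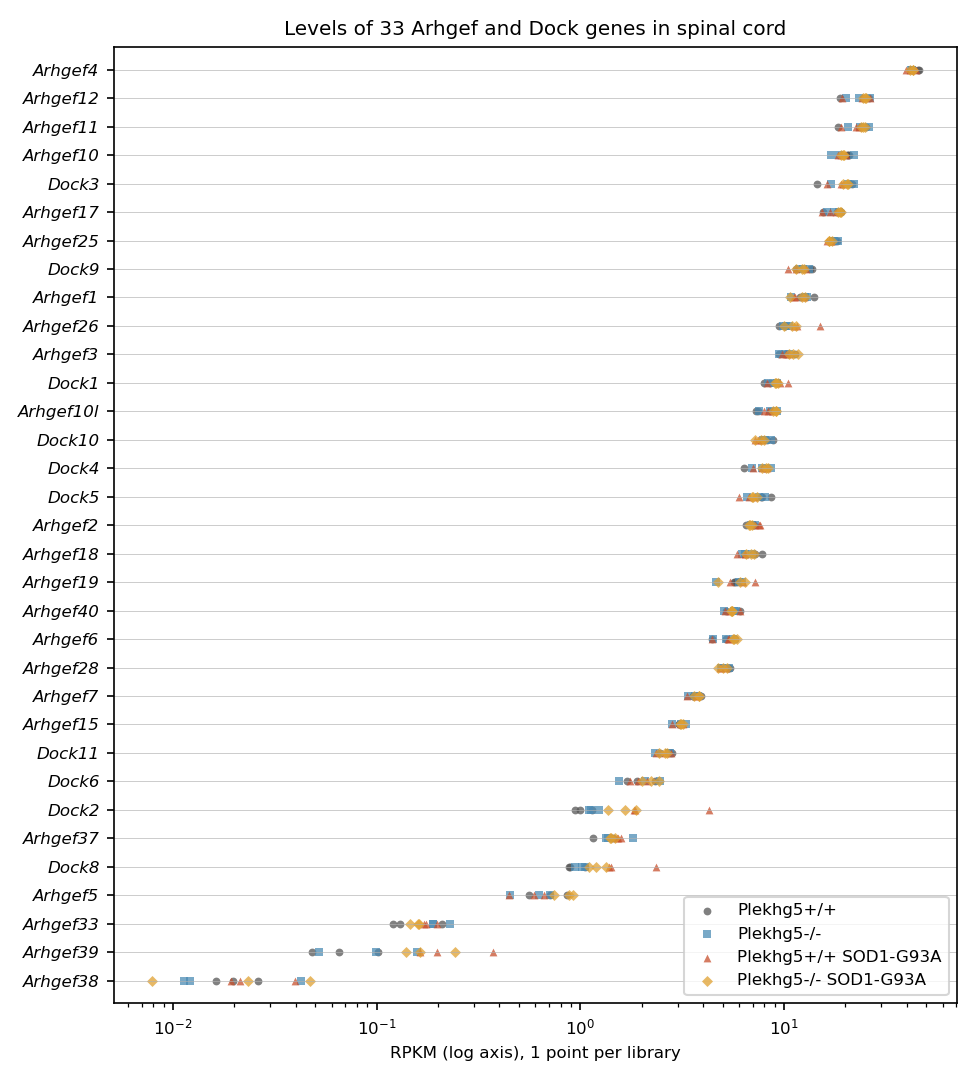
Levels of 33 of the 35 Arhgef and Dock genes in RPKM on a log axis, with 1 point for each of the 12 libraries, ordered by the mean and marked by genotype. Most genes form narrow clusters, from Arhgef4 at 42.8 RPKM down to Arhgef38 at 0.0238 RPKM, while Dock2 and Dock8 spread to the right in the Plekhg5+/+ SOD1-G93A libraries.

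Most of these genes varied little between the 12 libraries. In 24 of the 35 genes the highest library was below 1.5 times the lowest one in CPM, and the median of this ratio was 1.31. It was above 2 in 5 genes, namely Arhgef39 (7.77), Arhgef38 (5.91), Dock2 (4.57), Dock8 (2.68) and Arhgef5 (2.05). For Arhgef38 and Arhgef39 it rests on few counts. For Dock2 and Dock8, the highest library was Plekhg5+/+ SOD1-G93A #1. The lowest libraries were often the same across genes. Plekhg5-/- #1 was the lowest of its genotype for 26 of the 35 genes, Plekhg5+/+ SOD1-G93A #3 for 24, Plekhg5-/- SOD1-G93A #3 for 21 and Plekhg5+/+ #1 for 20.

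The first comparison addressed what the SOD1-G93A transgene changes while Plekhg5 is present. Between Plekhg5+/+ SOD1-G93A and Plekhg5+/+, 2 of the 35 genes rose and none fell. These were Dock2 and Dock8, which rose 2.60-fold and 1.82-fold. P-values come from edgeR's quasi-likelihood test and carry a Benjamini-Hochberg adjustment over every gene tested. The threshold was 0.05. By the same rule, 498 of the 20155 genes changed, a share of 2.47%. The 35 genes had a median log2 fold change of -0.02, beside -0.000994 for all genes tested, with 14 values above 0 and 21 below. At an unadjusted p below 0.05 there were 6 genes, of which 4 were higher and 2 lower, against 18.2% of all genes tested. In 11 genes the 3 libraries of one genotype lay all above or all below the 3 of the other, with 6 higher and 5 lower in Plekhg5+/+ SOD1-G93A. Over all genes tested this held for 20.6%.

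**Figure D2:**
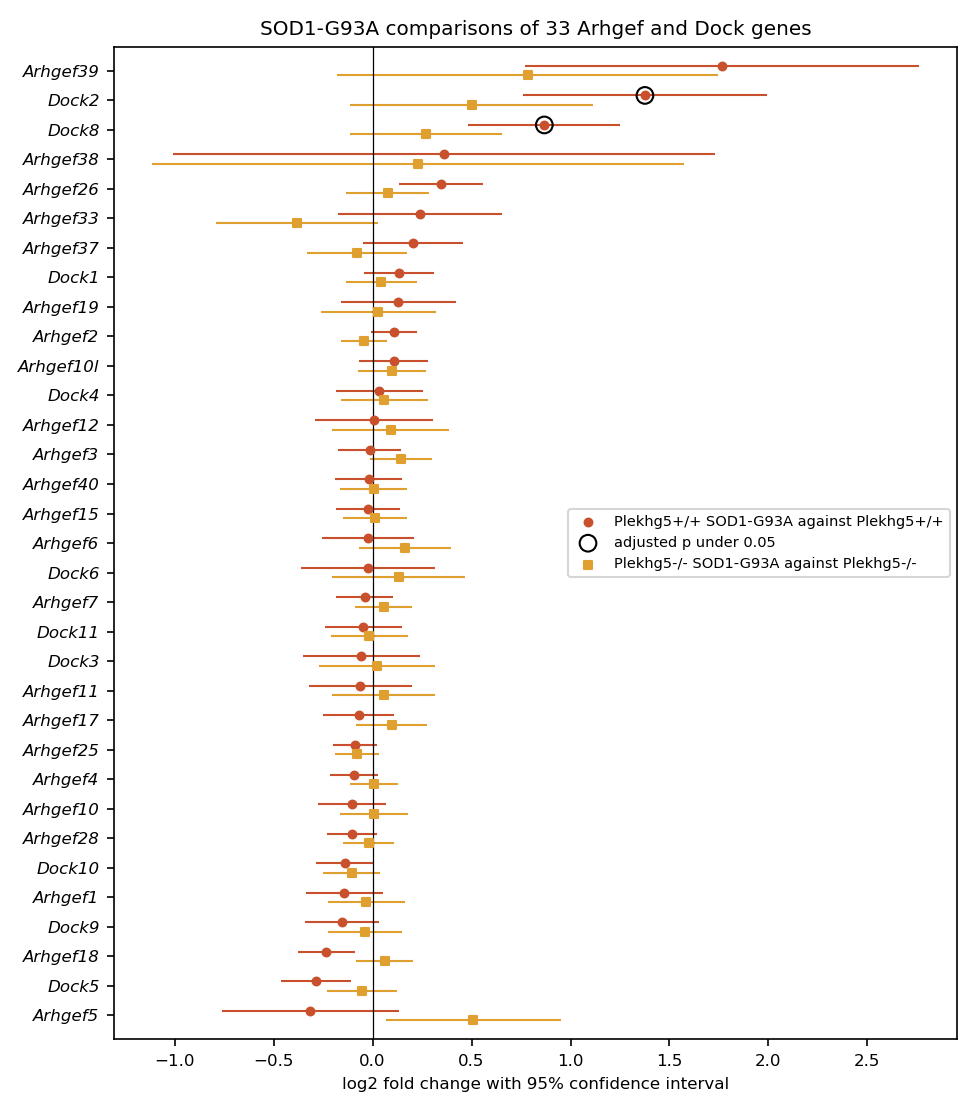
Log2 fold changes of 33 of the 35 genes in both SOD1-G93A comparisons, with 95% confidence intervals from edgeR, ordered by the comparison with Plekhg5 present. Circles mark an adjusted p below 0.05, which only Dock2 at 1.38 and Dock8 at 0.87 reached, while most other values lie close to 0.

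Dock2 is the Rac exchange factor of blood-derived and immune cells, in which it drives migration. Its gene lies at chr11:34226815-34783905 on the minus strand (GRCm38.p6). It measured 6.21, 7.52 and 6.55 CPM in the Plekhg5+/+ libraries #1 to #3, and 28.4, 12.2 and 12.1 CPM in the Plekhg5+/+ SOD1-G93A libraries. All transgenic libraries were thus above all wildtype libraries, and #1 was the highest of them. The Plekhg5-/- libraries had 8.16, 7.44 and 7.32 CPM, and the Plekhg5-/- SOD1-G93A libraries had 12.4, 11.0 and 9.06 CPM. These groups did not overlap either. The log2 fold change was 1.38 (SE 0.28, 95% confidence interval 0.76 to 1.99) with Plekhg5, at an adjusted p of 0.0299 in edgeR. Without Plekhg5 it was 0.50 (SE 0.28, 95% confidence interval -0.11 to 1.12), at an adjusted p of 0.950.

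Dock8 acts on Cdc42 and is known for its part in the migration and survival of lymphocytes and other immune cells. It lies at chr19:24999321-25202432 on the plus strand. The Plekhg5+/+ libraries had 7.48, 8.88 and 7.38 CPM, and the Plekhg5+/+ SOD1-G93A libraries had 19.8, 11.9 and 11.7 CPM. Again the genotypes did not overlap, and #1 was the highest. In Plekhg5-/- libraries the level was 7.93, 8.86 and 8.55 CPM, and in Plekhg5-/- SOD1-G93A libraries 11.2, 10.1 and 9.27 CPM, so that the transgenic libraries were higher here as well. The log2 fold change was 0.87 (SE 0.18, 95% confidence interval 0.48 to 1.25) with Plekhg5, at an adjusted p of 0.0264 in edgeR, and 0.27 (SE 0.18, 95% confidence interval -0.12 to 0.65) without Plekhg5, at an adjusted p of 0.950.

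**Figure D3:**
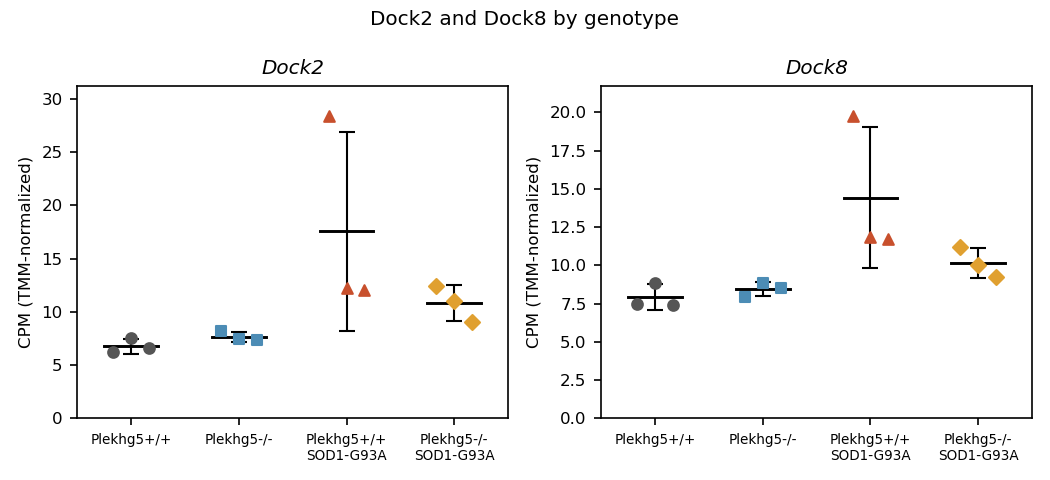
Dock2 (left) and Dock8 (right) in CPM by genotype, with 1 point per library, the mean as a horizontal line and the SD as the error bar (n = 3). All Plekhg5+/+ SOD1-G93A libraries lie above all Plekhg5+/+ libraries, and the library with 28.4 CPM of Dock2 and 19.8 CPM of Dock8 is Plekhg5+/+ SOD1-G93A #1.

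Both calls depended on the wildtype libraries. Without any one of the 3 Plekhg5+/+ libraries neither gene passed, with adjusted p from 0.0625 to 0.116 for Dock2 and from 0.0631 to 0.0987 for Dock8 in edgeR. Without Plekhg5-/- #3, Dock2 was at 0.0512 and Dock8 remained called. Without Plekhg5+/+ SOD1-G93A #1, the log2 fold changes were smaller, 0.84 for Dock2 and 0.57 for Dock8, and both passed at adjusted p of 0.00829 and 0.0353. When only these genotypes were fitted, neither gene passed (adjusted p of 0.140 and 0.103), and Dock2 also failed with limma voom (0.0860) and without the filter on low counts (0.0726).

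The microglial markers moved with Dock2 and Dock8. Of the 10 markers, 9 rose in Plekhg5+/+ SOD1-G93A against Plekhg5+/+ by the same test. Their sum was 480 to 557 CPM in Plekhg5+/+, 527 to 720 CPM in Plekhg5-/-, 889 to 1616 CPM in Plekhg5+/+ SOD1-G93A and 674 to 748 CPM in Plekhg5-/- SOD1-G93A. None of these 10 markers was at 0 in any library. The 6 astrocyte markers were also all higher in Plekhg5+/+ SOD1-G93A than in Plekhg5+/+. Of these 6, 3 had an unadjusted p below 0.05 and 1 was called in edgeR. All 3 markers of oligodendrocyte progenitors were higher as well, with 2 at an unadjusted p below 0.05 and 0 called. The 7 lymphocyte markers together reached only 0.841 to 4.13 CPM, of which Cd3e was at 0 to 0.243 CPM. Their sum was 0.841 to 0.944 CPM in Plekhg5+/+ and 1.617 to 3.199 CPM in Plekhg5+/+ SOD1-G93A libraries, without overlap. It was 1.053 to 1.357 CPM in Plekhg5-/- and 1.554 to 4.129 CPM in Plekhg5-/- SOD1-G93A. All 4 that could be tested were higher in Plekhg5+/+ SOD1-G93A, with 1 at an unadjusted p below 0.05 and 0 called in edgeR. For the transgene averaged over both backgrounds, all 4 had an unadjusted p below 0.05 in edgeR, and 0 were called. Per 1000 CPM of microglial markers, Dock2 had 11.5 to 15.7 CPM in Plekhg5+/+ and 12.6 to 17.6 CPM in Plekhg5+/+ SOD1-G93A. For Dock8 the same ratio was 13.3 to 18.5 CPM and 12.2 to 13.3 CPM. The part of the microglial, astrocyte, progenitor and lymphocyte markers in the results of Dock2 and Dock8 was not tested. In whole tissue, more cells of a type and more RNA per cell cannot be told apart.

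**Figure D4:**
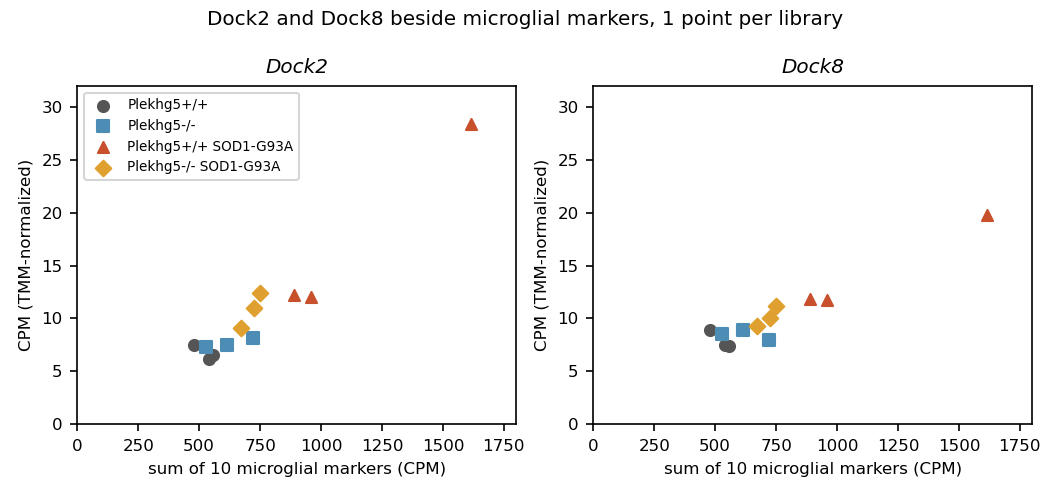
Dock2 (left) and Dock8 (right) in CPM against the summed CPM of 10 microglial markers, with 1 point for each of the 12 libraries, marked by genotype. The library at 1616 CPM of microglial markers, Plekhg5+/+ SOD1-G93A #1, also has the highest Dock2 and Dock8.

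As Dock2 and Dock8 rose together, the promoters of the members were searched for the letters GAGGAA, known as the PU box of the myeloid factor PU.1, and GGAAGT, a core sequence of the ETS factors. Both strands were read, and the motifs can overlap each other in the letters GGAA. The sequences are those of RefSeq for GRCm38.p6, from 250 bases before to 50 bases after a start site, and 27 of the 35 genes matched with 44 promoters. GAGGAA was found in 27.3% of these and in 28.3% of all 32851 promoters, and GGAAGT in 36.4% and 23.8%. The promoter of Dock2 holds both, with GGAAGT lying across its start site, and that of Dock8 holds GGAAGT. Shown are the 250 bases before the start of Dock2 (chr11:34783906-34784155, minus strand) and the last 30 bases before the start of Dock8 in that table (chr19:24999499-24999528, plus strand), which lies 208 bases inside the gene as it is given with the counts. Capitals mark the matches to either motif that lie wholly before the start.
Dock2: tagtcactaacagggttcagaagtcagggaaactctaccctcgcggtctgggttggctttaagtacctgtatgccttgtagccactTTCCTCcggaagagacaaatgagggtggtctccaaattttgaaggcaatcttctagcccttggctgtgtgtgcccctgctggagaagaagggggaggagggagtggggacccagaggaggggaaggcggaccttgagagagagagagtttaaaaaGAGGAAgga
Dock8: cgcggccaaggtggaaatgcGGAAGTttcc
In Dock2 one match starts 164 bases before the start site, on the opposite strand, and the other 9 bases before it. In Dock8 the match starts 10 bases before it. A match describes the letters and not the binding of a factor.

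The other genes of the Dock-A group are Dock1, which activates Rac with Elmo proteins in phagocytosis and migration, and Dock5. Dock1 had 54.5 to 62.9 CPM in Plekhg5+/+ and 56.4 to 71.3 CPM in Plekhg5+/+ SOD1-G93A libraries, which overlapped. Dock5 was lower, at 79.9, 89.9 and 81.1 CPM in Plekhg5+/+ against 69.5, 73.7 and 62.7 CPM in Plekhg5+/+ SOD1-G93A, and these groups did not overlap. Its log2 fold change of -0.29 (SE 0.08) missed the threshold, with an adjusted p of 0.0889 in edgeR. DESeq2 called Dock5 with and without a prior on the fold change. In the Dock-B group, the neuronal Rac factors Dock3 and Dock4 had log2 fold changes of -0.06 and 0.03. In the Dock-C group, Dock6 had -0.02. The Dock-D genes Dock9, Dock10 and Dock11, which act on Cdc42, had -0.15, -0.14 and -0.05, all 3 below 0 and none past the threshold.

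Of the 24 Arhgef genes none changed by this test (3 at an unadjusted p below 0.05, 2 higher and 1 lower). Arhgef39, a little studied member, came closest. It had 4, 5 and 8 counts in Plekhg5+/+ and 29, 12 and 16 counts in Plekhg5+/+ SOD1-G93A libraries. This is 0.116 to 0.245 CPM against 0.396 to 0.901 CPM, without overlap. The log2 fold change of 1.76 (SE 0.46) was the largest of the 35 genes, at an adjusted p of 0.0639 in edgeR, and it rests on these few counts.

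Arhgef26, an exchange factor for RhoG, had 52.4, 52.7 and 49.0 CPM in Plekhg5+/+ and 77.9, 58.1 and 60.0 CPM in Plekhg5+/+ SOD1-G93A. The highest library was again #1, and the genotypes did not overlap. Its log2 fold change was 0.35 (SE 0.10), at an adjusted p of 0.0821 in edgeR, while DESeq2 called it with and without a prior. The other genes of its group, Arhgef5, Arhgef15 and Arhgef19, had -0.31, -0.02 and 0.13, each with an interval across 0.

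Arhgef18, which activates RhoA at cell junctions, was lower, at 53.4, 57.3 and 52.1 CPM in Plekhg5+/+ against 47.3, 47.6 and 43.6 CPM in Plekhg5+/+ SOD1-G93A. Its log2 fold change was -0.23 (SE 0.07), at an adjusted p of 0.0855 in edgeR, while DESeq2 called it with and without a prior. Arhgef2, which is held inactive on microtubules and acts on RhoA, had 71.9 to 78.4 CPM against 79.2 to 84.2 CPM, a log2 fold change of 0.11. Arhgef28, an RNA-binding RhoA factor, had -0.10. Thus 2 genes of this group without overlap pointed down (Arhgef18 and Arhgef28) and 1 up (Arhgef2), and none passed the threshold in edgeR.

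The receptor-coupled RhoA factors Arhgef1, Arhgef11 and Arhgef12 had log2 fold changes of -0.14, -0.06 and 0.01, and none was called. Arhgef4, Arhgef6 and Arhgef7 had -0.09, -0.02 and -0.04. Arhgef6 and Arhgef7, the Pix proteins, bind the kinase Pak and the Git scaffolds. Arhgef4 had 346 to 371 CPM in Plekhg5+/+ and 320 to 361 CPM in Plekhg5+/+ SOD1-G93A libraries, which overlapped. The sum of 6 neuronal markers was 4187 to 4442 CPM and 3664 to 4238 CPM in these genotypes. That of 6 motoneuron markers was 275 to 283 CPM and 201 to 263 CPM. All 12 had log2 fold changes below 0, with 2 neuronal and 4 motoneuron markers at an unadjusted p below 0.05 and 0 called in edgeR. The part of these markers in the values of the Arhgef genes was not tested. Of the remaining genes, Arhgef10, Arhgef25 and Arhgef37 did not overlap between the genotypes, with log2 fold changes of -0.10, -0.09 and 0.20 and no call. Arhgef10 had 179 to 184.5 CPM in Plekhg5+/+ and 161.5 to 177.7 CPM in Plekhg5+/+ SOD1-G93A libraries. Over the libraries of all genotypes it had 151 to 195 CPM. Reads of Arhgef12 and Arhgef37 were in part counted as fractions in all 12 libraries, so that these counts share reads with other genes.

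The second comparison asked for the transgene's effect in the absence of Plekhg5. Between Plekhg5-/- SOD1-G93A and Plekhg5-/-, 0 of the 35 genes changed in edgeR, DESeq2 or limma voom, and 1 had an unadjusted p below 0.05 in edgeR, against 5.38% of all genes tested. Over all genes edgeR called 1, a share of 0.00496%, while DESeq2 called 44 and 42 (without and with a prior on the fold change) and limma voom 9. All 3 Schwann cell markers and 3 of the 8 endothelial markers were higher in Plekhg5-/- SOD1-G93A at an unadjusted p below 0.05 and none was called, and their part in the values of the 35 genes was not tested. The median of the 35 log2 fold changes was 0.04, beside -0.00489 for all genes tested. Groups did not overlap in 6 genes (4 higher and 2 lower), and in 12.5% of all genes. Besides Dock2 and Dock8 these were Arhgef3, Arhgef5, Arhgef25 and Arhgef33.

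Arhgef5, which is known for binding Src family kinases, had 2.46, 3.86 and 3.44 CPM in Plekhg5-/- and 4.07, 5.01 and 4.79 CPM in Plekhg5-/- SOD1-G93A. All 3 transgenic libraries were higher. The log2 fold change was 0.51 (SE 0.20), at an adjusted p of 0.877 in edgeR. Arhgef33 went the other way, with 3.10, 3.10 and 3.76 CPM against 2.65, 2.61 and 2.38 CPM and a log2 fold change of -0.38 (SE 0.19). Arhgef3, which acts on RhoA and RhoB, had 62.6, 66.5 and 69.7 CPM against 69.8, 76.9 and 72.7 CPM, a log2 fold change of 0.14 (SE 0.07). The nearest libraries of these genotypes lay less than 0.1 CPM apart for Arhgef3. Neither Arhgef33 nor Arhgef3 passed the threshold (adjusted p of 0.949 and 0.950 in edgeR).

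Averaged over both backgrounds, which reuses the libraries of both comparisons above, the transgene raised 2 of the 35 genes, Dock2 and Dock8. Their log2 fold changes were 0.94 (SE 0.20, adjusted p of 0.0473 in edgeR) and 0.57 (SE 0.13, adjusted p of 0.0497), just within the threshold. The share of all genes called was 1.22% in edgeR. Neither passed when any 1 library of Plekhg5+/+, Plekhg5-/- or Plekhg5-/- SOD1-G93A was left out, with adjusted p from 0.0554 to 0.123 for Dock2 and from 0.0660 to 0.118 for Dock8. Arhgef39 followed with 1.27 (SE 0.32, adjusted p of 0.0737 in edgeR), and was called in addition by limma voom and by DESeq2 without a prior. In all, 7 of the 35 genes had an unadjusted p below 0.05, against 14.7% of all genes tested. Besides these 3, Arhgef26 was higher, and Dock5, Dock10 and Arhgef25 were lower, by log2 values of 0.21, -0.17, -0.12 and -0.08. Arhgef25, which couples G proteins to RhoA, had 55.2 to 58.7 CPM in the 6 libraries without and 52.0 to 55.3 CPM in the 6 libraries with the transgene, and these ranges only just overlapped.

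The loss of Plekhg5, itself an exchange factor, called none of the 35 genes. Between Plekhg5-/- and Plekhg5+/+, edgeR, DESeq2 and limma voom each called 0, and 1 gene had an unadjusted p below 0.05 in edgeR, against 5.32% of all genes tested. Over all genes edgeR called 6, a share of 0.0298%, while DESeq2 called 36 and 35 and limma voom 7. Without Plekhg5+/+ #3, edgeR called 59. At an unadjusted p below 0.05, 2 of the 3 Schwann cell markers and 1 of the 8 endothelial markers were lower in Plekhg5-/-, without a call, and their part was not tested. As a median, the 35 genes had a log2 fold change of 0.01, beside 0.00544 for all genes. Only Arhgef4 and Arhgef18 did not overlap, both lower in Plekhg5-/-, against 8.71% of all genes. Arhgef18 had 46.1, 47.7 and 51.7 CPM in Plekhg5-/- libraries, below all 3 wildtype libraries, with a log2 fold change of -0.16 (SE 0.07) and an adjusted p of 0.929. Arhgef4 had 345, 339 and 344 CPM against 346, 371 and 367 CPM, a log2 fold change of -0.08 (SE 0.06). The smallest p-values besides were those of Arhgef33 (0.40), Arhgef10l (0.12), Arhgef37 (0.17) and Dock5 (-0.12), given here as log2 fold changes, all with overlapping libraries.

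With the transgene, between Plekhg5-/- SOD1-G93A and Plekhg5+/+ SOD1-G93A, again 0 of the 35 genes were called by edgeR, DESeq2 or limma voom, while 5 had an unadjusted p below 0.05 in edgeR (1 higher and 4 lower), against 8.64% of all genes tested. Over all genes edgeR called 7, a share of 0.0347%, while DESeq2 called 71 and 114 and limma voom 8. At an unadjusted p below 0.05 in edgeR, 9 of the 10 microglial markers were lower in Plekhg5-/- SOD1-G93A, with a median log2 fold change of -0.63 over the 10. Also lower were 2 of the 6 astrocyte and 1 of the 6 oligodendrocyte markers. Higher were 6 of the 8 endothelial, 2 of the 3 Schwann cell, 3 of the 6 neuronal and 3 of the 6 motoneuron markers. None of these markers was called, and their part in the values of the 35 genes was not tested. The median log2 fold change was 0.03, beside -0.00973 for all genes. This comparison shares the Plekhg5+/+ SOD1-G93A libraries with the first one. Groups did not overlap in 13 of the 35 genes, 9 higher and 4 lower in Plekhg5-/- SOD1-G93A, and in 19.5% of all genes. Dock8, with all 3 libraries below those of Plekhg5+/+ SOD1-G93A, had a log2 fold change of -0.50 (SE 0.17, adjusted p of 0.516 in edgeR). Dock2 had -0.70 (SE 0.27, adjusted p of 0.526), and its groups overlapped by the library with 12.4 CPM. Arhgef5 was higher in all 3 libraries, with 3.63, 2.44 and 3.24 CPM in Plekhg5+/+ SOD1-G93A and a log2 fold change of 0.57 (SE 0.20, adjusted p of 0.517).

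Arhgef2 had 83.0, 84.2 and 79.2 CPM in Plekhg5+/+ SOD1-G93A and 76.4, 75.1 and 73.9 CPM in Plekhg5-/- SOD1-G93A. The log2 fold change was -0.13 (SE 0.05, adjusted p of 0.539 in edgeR). Arhgef26 had -0.22, with an overlap. Arhgef17, an actin-linked RhoA factor, had 173, 183 and 157 CPM against 193, 188 and 195 CPM, with Plekhg5+/+ SOD1-G93A #3 as the lowest library. It was higher in all 3 libraries, with a log2 fold change of 0.16 (SE 0.08, adjusted p of 0.589 in edgeR). Arhgef3, Arhgef6, Arhgef10l, Arhgef11, Arhgef18 and Dock3 were likewise higher in all 3 libraries without a call, and Arhgef33 and Arhgef37 were lower. Averaged over both backgrounds, the loss of Plekhg5 called 0 of the 35 genes by edgeR, DESeq2 or limma voom, with 0 at an unadjusted p below 0.05 in edgeR, against 3.88% of all genes tested. Of all genes edgeR called 11, a share of 0.0546%. The smallest p-value was that of Arhgef10l, with a log2 fold change of 0.12 (SE 0.06) and an adjusted p of 0.987. In Arhgef11, Dock3 and Dock6 this average was 0.11, 0.11 and 0.12, also without a call.

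Whether the transgene acts differently with and without Plekhg5 was tested as an interaction. Of the 20155 genes edgeR called 0 (0%) and limma voom 0, while DESeq2 called 102 and 114, without and with a prior. Without Plekhg5+/+ #3, edgeR called 40. Of the 35 genes 0 were called by edgeR, DESeq2 or limma voom, with 5 at an unadjusted p below 0.05 in edgeR, against 9.05% of all genes tested. These had interaction values, on the log2 scale, of 0.29 (Arhgef18), 0.82 (Arhgef5), -0.60 (Dock8), -0.62 (Arhgef33) and -0.88 (Dock2), with adjusted p of 0.407, 0.457, 0.507, 0.521 and 0.544. The call of Dock2 and Dock8 with Plekhg5 and its absence without Plekhg5 is thus not shown to differ between the backgrounds. The 95% confidence intervals of the interaction were -1.74 to -0.01 for Dock2 and -1.14 to -0.06 for Dock8. Negative interaction values at an unadjusted p below 0.05 in edgeR were found for 9 of the 10 microglial markers. The same held for 3 of the 6 oligodendrocyte and 2 of the 6 astrocyte markers. Positive ones were found for 4 of the 8 endothelial and 2 of the 3 Schwann cell markers. None of these markers was called, and their part in the values of the 35 genes was not tested. Arhgef4, Arhgef6 and Arhgef7 had interaction values of 0.10, 0.18 and 0.10, at adjusted p of 0.671, 0.682 and 0.727.

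**Figure D5:**
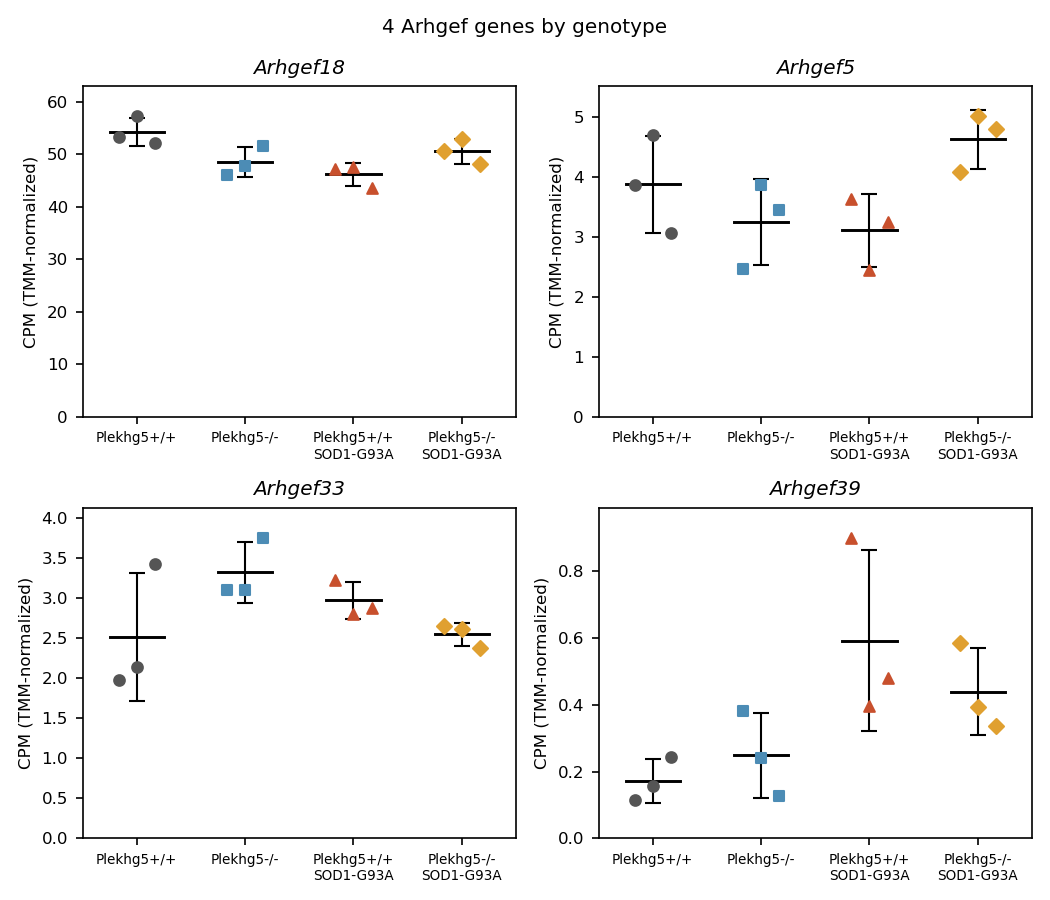
Arhgef18, Arhgef5, Arhgef33 and Arhgef39 in CPM by genotype, with 1 point per library, the mean as a horizontal line and the SD as the error bar (n = 3). Arhgef18 is highest in Plekhg5+/+, Arhgef5 is highest on average in Plekhg5-/- SOD1-G93A, and Arhgef39 stays below 1 CPM in every library.

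The genes around the exchange factors were counted by lists. Between Plekhg5+/+ SOD1-G93A and Plekhg5+/+, 1 of 18 small GTPases, 0 of 14 partners of Dock and Pix proteins (Elmo, Git and Crk genes among them, with 2 at an unadjusted p below 0.05), 4 of 33 other Dbl-family exchange factors, 1 of 3 RhoGDIs, which hold the GTPases in the cytosol, 1 of the 25 effectors tested and 2 of the 32 Arhgap genes tested, which switch the GTPases off, were called. The medians of these lists were 0.14, -0.02, -0.03, 0.15, -0.07 and -0.01 on the log2 scale. Of the 9 genes called, 8 rose and 1 fell. Over all genes tested 2.47% were called, 422 higher and 76 lower. In the second comparison, Plekhg5 loss without and with the transgene and the interaction, none of these lists held a called gene by edgeR. Each list had 0 to 9 genes at an unadjusted p below 0.05, against 5.38%, 5.32%, 8.64% and 9.05% of all genes tested, in this order. The most were 9 of the 32 Arhgap genes (4 higher and 5 lower) and 8 of the 33 other exchange factors (2 higher and 6 lower). Both counts are those of Plekhg5 loss with the transgene. These lists were not counted with the other tools.

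The GTPase was Rac2, the Rac of blood-derived cells, with 3.05 to 3.77 CPM in Plekhg5+/+ and 5.45 to 13.4 CPM in Plekhg5+/+ SOD1-G93A (log2 fold change 1.37, SE 0.32, adjusted p of 0.0466 in edgeR). Among the exchange factors were Vav1, which acts on Rac in blood-derived cells, with a log2 fold change of 1.18 (SE 0.23), and Fgd2, a Cdc42 factor of antigen-presenting cells, with 0.74 (SE 0.14). Mcf2l, a factor for RhoA and Cdc42, fell by 0.28 (SE 0.07). The fourth gene was Spata13 at 0.39 (SE 0.09), which is named here because it completes the count. The RhoGDI was Arhgdib, the form of blood-derived cells, at 1.13 (SE 0.27), and the effector was Was, the Wiskott-Aldrich protein through which Cdc42 acts on actin in these cells, at 1.08 (SE 0.20). Of the Arhgap genes, Arhgap25, a Rac regulator of phagocytes, rose by 1.49 (SE 0.28) and Arhgap30 by 0.95 (SE 0.21). In each of these 9 genes the 3 libraries of one genotype did not overlap with those of the other, as in 20.6% of all genes tested. This adds no support, as the genes were picked by the test on the same libraries. Vav1 had 4.56 to 5.08 CPM in Plekhg5+/+ and 8.43 to 15.9 CPM in Plekhg5+/+ SOD1-G93A, again with #1 as the highest. The microglial markers moved with these genes as given above, and their part in them was not tested. In the average over both backgrounds, Vav1, Arhgdib, Was and Arhgap30 were called, at log2 fold changes of 0.80, 0.88, 0.72 and 0.69. Over all genes tested this share was 1.22%.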

How the data were processed

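Per the methods and labels, the authors prepared stranded poly-A libraries. They used cutadapt 2.4 for trimming, STAR 2.7.2b for mapping to GRCm38.p6 plus the human SOD1 cDNA, and featureCounts 1.6.4 for counting on RefSeq exons. Reads with several matches were counted as fractions, so the values deposited by the authors are expected counts. The deposited exon length was used for RPKM only. The counts were rounded. edgeR 4.0.16 in R 4.3.3 kept 20155 genes with filterByExpr, scaled them with TMM and fitted the 4 genotypes together with robust quasi-likelihood for 7 comparisons. P-values rest on the spread between the 3 libraries within each genotype. The estimate for each gene was shared by all 4 genotypes and drew in part on the other genes. CPM per library are TMM-scaled. DESeq2 1.42.0 and limma 3.58.1 were alternatives, and the fits were tested on simulated data. No 2 libraries of a genotype agreed within sampling noise (chi-square per degree of freedom of 5.67 or more).

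The 35 genes, the role lists and the marker lists were chosen with earlier results of these data known. Named were the targeted genes, each member called, the 3 further members with the smallest p per comparison, and up to 3 called genes per related list. The counts cover all 35 members, and 2 members are not reported here one by one. All 12 count columns matched a sample by name (0 without one).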

Additional observations from a re-analysis of the deposited data

Results flagged for a closer look

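Arhgef18 was the gene whose libraries moved in opposite directions with and without the transgene when Plekhg5 was lost. All 3 Plekhg5-/- libraries (46.1 to 51.7 CPM) lay below all 3 Plekhg5+/+ libraries (52.1 to 57.3 CPM), while all 3 Plekhg5-/- SOD1-G93A libraries (48.2 to 52.9 CPM) lay above all 3 Plekhg5+/+ SOD1-G93A libraries (43.6 to 47.6 CPM). The interaction was 0.29 on the log2 scale (SE 0.09, p of 0.00795, adjusted p of 0.407 in edgeR), so it did not pass the threshold over all genes.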

How the results depend on the processing

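In the comparison of SOD1-G93A with Plekhg5 present, 2 of the 35 genes were called, against 5 with DESeq2 with and without a prior (Arhgef18, Arhgef26 and Dock5 in addition), 1 with limma voom (Dock8), 1 without the filter on low counts (Dock8) and 0 when only the genotypes compared were fitted. In the average over both backgrounds, 2 were called, against 1 with DESeq2 size factors in edgeR (Dock2) and 1 without the filter (Dock8), and 3 with limma voom and with DESeq2 without a prior (Arhgef39 in addition). Leaving out each library gave 0 to 5 and 0 to 3 calls, with 5 without Plekhg5-/- #1 and 4 without Plekhg5+/+ SOD1-G93A #2 in the first, and 3 without Plekhg5+/+ SOD1-G93A #2 in the second. The causes were not tested. Over all genes, 498 calls of the first comparison became 1172 and 1198 with DESeq2 without and with a prior, 282 with limma voom, 3 with only the genotypes compared, and 2 to 771 when 1 library was left out, with 2 without Plekhg5+/+ #2, 4 without Plekhg5+/+ #1 and 223 without Plekhg5+/+ SOD1-G93A #1. The 245 calls of the average became 826 and 827 with DESeq2 and 612 with limma voom, 417 with the replicate block and 412 with a term for Y-linked transcripts, and 10 to 560 when 1 library was left out. They were 10, 15 and 101 without Plekhg5+/+ #2, #1 and #3, 38 and 18 without Plekhg5-/- #2 and #3, 27, 17 and 135 without Plekhg5-/- SOD1-G93A #1, #2 and #3, and 560 and 498 without Plekhg5+/+ SOD1-G93A #2 and #3. The 1 call of the transgene effect without Plekhg5 became 44 and 42 with DESeq2, 9 with limma voom, 20 with only the genotypes compared and 1 to 9 when 1 library was left out (9 without Plekhg5+/+ SOD1-G93A #1, 5 without Plekhg5+/+ #3 and 3 without Plekhg5-/- #2). For the loss of Plekhg5, 6 calls without the transgene became 36 and 35 with DESeq2 and 5 to 59 when 1 library was left out (59 without Plekhg5+/+ #3), and 7 calls with it became 71 and 114 with DESeq2, 11 with only the genotypes compared, and 4 to 8 when 1 library was left out (4 without #2 of either transgenic genotype). The interaction had 0 calls in edgeR, 102 and 114 in DESeq2, and 0 to 40 when 1 library was left out (40 without Plekhg5+/+ #3). Of 538 values of single genes under alternatives, 497 kept their side of the threshold and direction, 31 were no longer called, 10 were newly called and 0 reversed.

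The labels do not say whether the replicate numbers pair the mice, and the main fits did not use them. Correlations of same-numbered libraries ran from -0.16 to 0.32, with 5 of 18 above 0.1. Of 12 libraries, 6 correlated best with their own number. This cannot decide about a pairing, since some libraries would match their own number best without one. Over all genes, the replicate block gave 631 calls in the first comparison, against 498 without it. With the replicate block, 3 genes were called in the first comparison and 3 in the average (Arhgef39 in addition), and 0 in the other comparisons. A term for Y-linked transcripts gave 3 and 3. At 2 to 29 counts per library, Arhgef38 and Arhgef39 allow only large differences to be seen.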
